A study of Homo sapiens with 6 samples.

Results

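PRTN3, CTSG, AZU1 and LYZ encode 3 serine protease family proteins of the azurophil granule and lysozyme, and their transcripts were followed in THP-1, an established cell line grown from a human acute monocytic leukaemia. The set holds 4 of the 14884 genes with a value under 1 gene name. All 4 were selected on their measured difference between RKIP shRNA and control arrays, so that difference is described below without a test. Each gene was read from the row with the highest mean over the 6 arrays, and LYZ had a second row that is shown beside the first. The cells had been transduced with the vector psi-LVRU6GP carrying a hairpin against RKIP, or with the same vector left empty, and both groups were kept in 1.5 µg/mL puromycin. RKIP, the Raf kinase inhibitor protein encoded by PEBP1, restrains signalling from RAF to MEK and ERK. Each group had 3 Affymetrix Human Gene 2.0 ST arrays, called biological replicates in the labels. The labels name 1 hairpin group and give neither the number of transductions nor of clones, so the spread between arrays may be partly technical.

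Azurophil granules are the first granules to form in the maturing granulocyte, and their proteins are made mainly at the promyelocyte stage, while monocytes and their precursors make some of them too. Proteinase 3 (PRTN3) and cathepsin G (CTSG) are active serine proteases that cathepsin C trims to their active form and that are stored bound to the proteoglycan serglycin. Azurocidin (AZU1) has the same fold but has lost its catalytic residues, and acts as an antibacterial, heparin-binding protein. Lysozyme (LYZ) cuts the peptidoglycan of bacterial walls and is stored in granules as well as secreted steadily by monocytes and macrophages.

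The promoters of the 3 serine protease family genes are shown because AZU1 and PRTN3 lie next to each other on chromosome 19 and yet differed in how far their values moved, while CTSG lies on chromosome 14. The sequences are the 250 bases before the annotated start, read 5′ to 3′ on the gene's strand, from RefSeq on GRCh38.p14. They span chr19:840749-840998 on the plus strand for PRTN3, chr19:827587-827836 on the plus strand for AZU1 and chr14:24576251-24576500 on the minus strand for CTSG. Capitals mark matches to the motifs described after them.
PRTN3: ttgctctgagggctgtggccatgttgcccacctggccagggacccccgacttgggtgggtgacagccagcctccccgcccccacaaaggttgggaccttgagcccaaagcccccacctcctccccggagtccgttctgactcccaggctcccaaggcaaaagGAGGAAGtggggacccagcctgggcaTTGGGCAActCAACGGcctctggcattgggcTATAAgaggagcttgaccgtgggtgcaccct
AZU1: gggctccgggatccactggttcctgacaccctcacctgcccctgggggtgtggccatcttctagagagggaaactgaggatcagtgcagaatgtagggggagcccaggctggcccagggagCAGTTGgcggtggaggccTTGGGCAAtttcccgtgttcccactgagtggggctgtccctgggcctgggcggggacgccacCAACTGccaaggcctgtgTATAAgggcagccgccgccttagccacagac
CTSG: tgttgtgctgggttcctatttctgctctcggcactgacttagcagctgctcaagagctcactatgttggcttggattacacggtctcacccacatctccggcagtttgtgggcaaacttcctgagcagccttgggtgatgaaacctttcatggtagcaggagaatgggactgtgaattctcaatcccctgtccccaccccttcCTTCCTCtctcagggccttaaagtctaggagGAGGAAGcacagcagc

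The motifs were written down after these sequences had been read, and each was searched on both strands except the TATA motif, which was searched on the gene's strand. An ETS-type purine box (GAGGAAG) was present in PRTN3, at 88 to 82 bases before the start. It was present in CTSG on each strand, at 16 to 10 and at 47 to 41 bases before the start, and was not found in this window of AZU1. Of 27305 promoters of this length 11.0% held it. A C/EBP-type motif (TTGNGCAA) was found in PRTN3 at 62 to 55 bases and in AZU1 at 111 to 104 bases before the start, against 2.3% of all promoters. In both genes its letters were TTGGGCAA. The MYB motif (CAACNG) was found in PRTN3 at 52 to 47 bases and in AZU1 at 49 to 44 and at 129 to 124 bases, against 27.2% of promoters. A TATA motif (TATAA) lay at 31 to 27 bases before the start in PRTN3 and in AZU1 alike, against 14.3% of promoters. A RUNX motif (TGTGGT), held by 10.9% of promoters, was in none of these windows. No motif match overlapped another. Because the motifs were chosen after reading these sequences, the shares do not show how unusual a match in these genes is. A match describes letters in this window and says nothing of binding.

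The targeted gene was measured first. PEBP1 stood at 9.52, 9.77 and 9.75 in the control arrays and at 8.25, 8.18 and 8.24 in the RKIP shRNA arrays (deposited log2 values, replicates 1 to 3). Its log2 value thus fell by 1.46 (SE 0.09, limma adjusted p = 0.000228), and every array labelled RKIP shRNA was below every control array. Over the whole table, array medians lay between 4.06 and 4.10. Of all genes tested, 10.0% were called higher and 10.2% lower in RKIP shRNA cells, together 20.2% (limma, Benjamini-Hochberg adjusted p under 0.05). The count of called genes was 3010 with all arrays and 1987 without control replicate 2. All counts of called genes below are read against these shares. A value below 4.08, the median of all rows, is called dim, because background compresses differences there.

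PRTN3 was among the genes with the largest upward differences. Its log2 values were 9.50, 9.34 and 9.48 in the control arrays and 11.86, 11.96 and 12.01 in the RKIP shRNA arrays. Every RKIP shRNA array thus stood above every control array, with a gap of 2.37 between the closest pair. The group means were 9.44 ± 0.09 and 11.94 ± 0.07 (SD, n = 3 each), a log2 difference of 2.51 (SE 0.08) or 5.68-fold. PRTN3 held rank 6 when all 14884 genes were ordered by their difference. In these bulk samples more RNA per cell and more cells that hold the transcript cannot be told apart.

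LYZ had a difference of the same size. Its kept row gave 7.61, 7.59 and 7.44 in control arrays and 10.07, 10.09 and 10.13 in RKIP shRNA arrays. The 3 RKIP shRNA values lay within 0.06 of each other, and the groups were 2.46 apart at their closest. The means of 7.55 ± 0.09 and 10.09 ± 0.03 (SD, n = 3 each) differ by 2.55 (SE 0.07), or 5.85-fold, which is rank 5 of all genes. LYZ and PRTN3 differed from each other in their log2 difference by 0.04.

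The second LYZ row pointed the same way from a much dimmer start. It read 4.38, 4.04 and 3.98 in control arrays and 7.45, 7.40 and 7.83 in RKIP shRNA arrays. Of its control values, 2 were below the median of all rows, and every RKIP shRNA value was above every control value. The log2 difference was 3.43 (SE 0.16 in a fit over all rows of the table). No fold is given, since the control values lie around the median of all rows. LYZ lies on the plus strand, but the second row is numbered among rows of minus-strand genes (18 of the 20 nearest with a known strand). Whether it reads the LYZ transcript or RNA of the opposite strand is not given in the sources used here. Its value is therefore not taken as a second measure of the LYZ difference. Both rows come from the same arrays and are no independent check of each other.

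CTSG and AZU1 had much smaller differences. CTSG, which was bright in both groups, read 10.69, 10.52 and 10.55 in control arrays and 11.11, 11.01 and 11.15 in RKIP shRNA arrays. The groups did not overlap and were 0.33 apart at their closest. Its means were 10.58 ± 0.09 and 11.09 ± 0.07 (SD, n = 3 each), a log2 difference of 0.51 (SE 0.08) or 1.42-fold. AZU1 read 7.74, 7.26 and 7.21 in control arrays against 8.14, 7.96 and 7.91 in RKIP shRNA arrays. Here the control arrays themselves spread over 0.53, and control replicate 1 came within 0.17 of the lowest RKIP shRNA array. The means of 7.405 ± 0.290 and 8.002 ± 0.124 (SD, n = 3 each) differ by 0.60 (SE 0.15), or 1.51-fold, and by 0.76 without control replicate 1. In the order of all differences AZU1 held rank 347 and CTSG rank 565.

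The 4 genes therefore form a pair with a difference near 2.5 and a pair near 0.5 to 0.6 on the log2 scale. The log2 difference of PRTN3 exceeded that of its neighbour AZU1 by 1.91 and that of CTSG by 2.00, whereas AZU1 and CTSG were 0.09 apart. In all 4 genes every RKIP shRNA array stood above every control array. Over the whole table this was so for 19.8% of genes, and nothing is read from the count because the genes were chosen by this contrast.

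**Figure D1:**
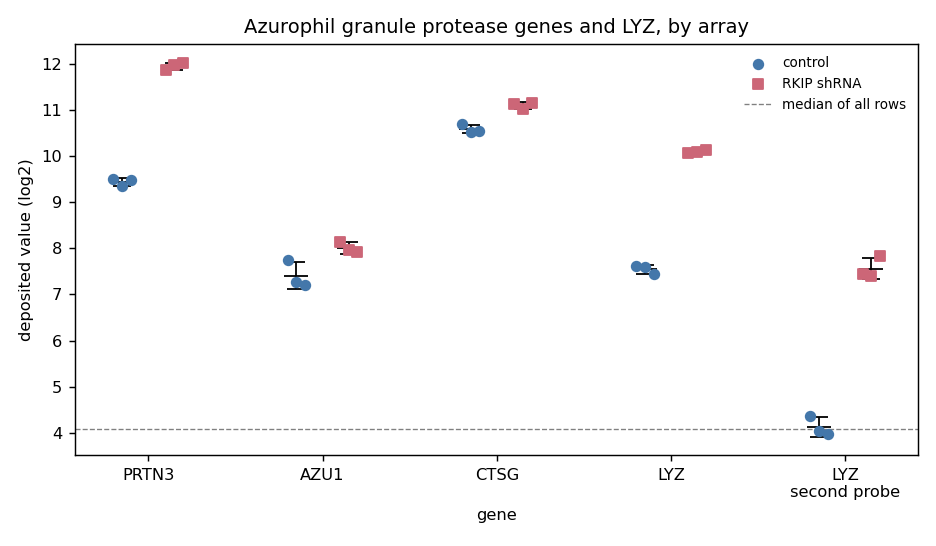
Deposited log2 value (vertical axis) of PRTN3, AZU1, CTSG, LYZ and the second LYZ row in each control array (circles) and RKIP shRNA array (squares), with group mean and SD (n = 3 each) and the median of all rows, 4.08, as a dashed line. The groups are 2.37 or more apart for PRTN3 and both LYZ rows, and 0.33 and 0.17 apart for CTSG and AZU1.

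The other contents of the azurophil granule that had a value were all called higher. Of 15 entries in that list 5 were measured, and 5 of 5 rose, against 10.0% of all genes, with a median log2 difference of 0.79 against 0.02 over all genes. The list was chosen with earlier results of these data known, so the count is a description and not a test. CFD, the complement protease factor D (adipsin), read 7.13, 7.16 and 7.08 in control and 8.47, 8.40 and 8.27 in RKIP shRNA arrays. That is a rise of 1.26 (SE 0.08, limma adjusted p = 0.000234), with no overlap between groups. BPI, the bactericidal protein that binds lipopolysaccharide, rose by 1.41 (SE 0.18, limma adjusted p = 0.00236) from a dim control mean of 3.79. CD63, a tetraspanin of the azurophil granule membrane, rose by 0.79 (SE 0.08), and CD68, a lysosomal and granule membrane glycoprotein, by 0.37 (SE 0.06). MPO, the myeloperoxidase that is the main azurophil enzyme, went from a mean of 12.76 to 13.03. Its rise of 0.26 (SE 0.07, limma adjusted p = 0.0407) was no longer called in any of the 6 fits without 1 array, where the adjusted p reached 0.115, so that 4 of 5 genes were called in each of those fits. MPO values lie close to the top of the scale of the table, whose highest value is 14.0. The other 10 entries, among them the neutrophil elastase gene ELANE and the defensin genes, had no row with a gene name here.

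Genes of the later granules mostly did not pass. Of 19 measured genes of the specific and gelatinase granules, which form after the azurophil granules, 1 rose and 18 did not pass. The 1 that rose was CHI3L1, a chitinase-like glycoprotein, with a log2 difference of 1.67 (SE 0.10, limma adjusted p = 0.000228). The list had a median log2 difference of -0.04, and 10 of its genes were dim in both groups. Of the 19 genes, 2 were higher and 1 was lower at an unadjusted p under 0.05. Of all 14884 genes, 2502 were higher and 2304 lower at that threshold.

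Most measured genes for trimming, packing and releasing the proteases did not pass. Of 11 measured genes of granule maturation, storage and release 2 rose, 1 fell and 8 did not pass (median log2 difference 0.05). Over all genes 10.0% were called higher and 10.2% lower. SRGN, which encodes serglycin, the proteoglycan core on which the proteases are stored, read 11.77, 11.82 and 11.84 in control arrays and 12.73, 12.58 and 12.75 in RKIP shRNA arrays. It rose by 0.88 (SE 0.07, limma adjusted p = 0.000628), and its groups did not overlap. LYST, the lysosomal trafficking regulator whose loss causes giant granules, rose by 0.63 (SE 0.07). VPS45, a sorting protein of the endosome, fell by 0.34 (SE 0.06). CTSC, the cathepsin C that trims PRTN3 and CTSG, had a log2 difference of 0.21 and did not pass (limma adjusted p = 0.164).

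Among the inhibitors only cystatins were called, in both directions. Of 6 measured inhibitors 1 rose, 2 fell and 3 did not pass (median log2 difference 0.06). CST7 encodes cystatin F, an inhibitor of cathepsin C and other cysteine cathepsins in leukocytes. Its values were 10.28, 10.00 and 10.05 in control and 8.82, 8.95 and 8.78 in RKIP shRNA arrays, and the groups did not overlap. CST7 fell by 1.26 (SE 0.10, limma adjusted p = 0.000478). CSTA, the cytosolic cystatin A, fell by 0.82 (SE 0.09), and CST3, the secreted cystatin C, rose by 0.76 (SE 0.15). These called members are all cystatins, which inhibit cysteine proteases and not PRTN3 or CTSG themselves. The measured inhibitors in the list that are not cystatins, SLPI and A2M, were at -0.01 and 0.18. Neither passed, and both were dim in both groups. The listed serpins, which inhibit serine proteases directly, SERPINB1 included, had no row with a gene name here.

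Among 15 measured substrates, receptors and binding partners, 3 rose, 2 fell and 10 did not pass (median log2 difference 0.05). ANXA1, annexin A1, which proteinase 3 can cleave, rose by 2.12 (SE 0.07). CXCL8, the neutrophil chemokine interleukin 8, rose by 3.05 (SE 0.19) from a control mean of 4.58, little above the median of all rows. C5AR1, the receptor for complement C5a, fell by 1.66 (SE 0.08) to a dim mean of 4.05, and IL18, an interleukin precursor, fell by 1.39 (SE 0.12). The progranulin gene GRN also rose, by 0.32, and is named although it lies outside the naming rule.

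Of 20 measured transcription factors that are known to act on granule genes or on myeloid lineage choice, 2 rose, 4 fell and 14 did not pass (median log2 difference -0.01). SPI1, which encodes PU.1, an ETS factor that binds purine-rich boxes, read 8.83, 8.68 and 8.83 in control and 9.25, 9.35 and 9.22 in RKIP shRNA arrays. It rose by 0.49 (SE 0.08, limma adjusted p = 0.00527), and all RKIP shRNA arrays were higher than all control arrays. GATA2, a factor of progenitors, mast cells and basophils, rose by 0.56 (SE 0.07). FLI1, another ETS factor, fell by 0.46 (SE 0.07), and LEF1, a factor of WNT signalling that is needed for granulocyte maturation, by 0.55 (SE 0.10). SP1 and CUX1 fell by 0.30 and 0.28. They are named outside the rule and lost their calls in 3 and 5 of 6 fits without 1 array. MYB at -0.12, GFI1 at 0.09 and IRF8 at 0.08 did not pass, and IRF8 was dim in both groups. CEBPA and CEBPE, the factors of the C/EBP family best known for granule genes, had no row with a gene name.

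Of 7 measured granule serine protease relatives 2 rose and 5 did not pass, against 10.0% of all genes called higher (median log2 difference -0.08). The 2 that rose were CFD and the tryptase gene TPSB2, which rose by 0.56 (SE 0.13). The tryptase genes TPSB2 and TPSAB1 are near-identical copies, so the signal of TPSB2 cannot be assigned to it alone. TPSAB1 was at -0.33, did not pass and was dim in both groups. The call of TPSB2 was lost in 3 of 6 fits without 1 array, so that 1 of 7 genes was called without control replicate 1, without RKIP shRNA replicate 2 and without RKIP shRNA replicate 3. Of 18 measured lysozyme relatives and other antibacterial proteins 2 rose and 16 did not pass (median log2 difference 0.07). BPI was one of them, and RNASET2, a lysosomal ribonuclease, rose by 0.49 (SE 0.09, limma adjusted p = 0.0101).

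**Figure D2:**
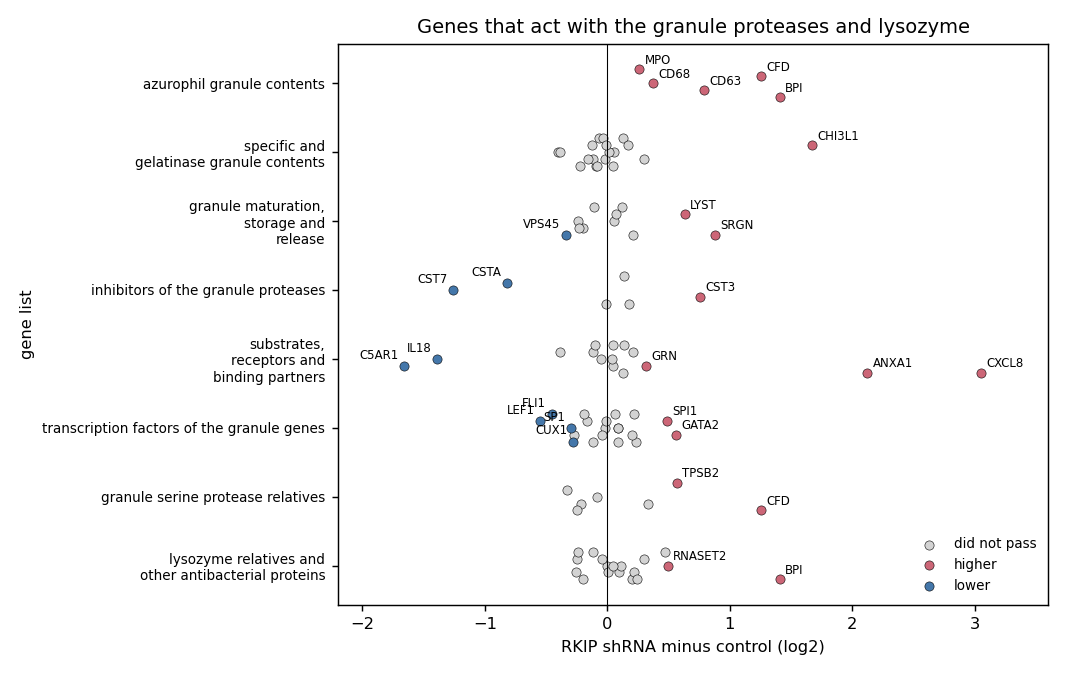
Log2 difference, RKIP shRNA minus control (horizontal axis), of each measured gene in 8 lists of genes that act with or resemble the granule proteases and lysozyme (vertical axis). Genes that passed the limma test are coloured by direction and named, and the 5 measured azurophil granule genes all lie to the right of 0, from MPO at 0.26 to BPI at 1.41.

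The genes around the members on their chromosomes were read next. The order of genes was taken from RefSeq, and the 6 nearest genes with a value on each side were read. Of the 12 neighbours of PRTN3 and AZU1, 3 rose and 9 did not pass (median log2 difference 0.16). At an unadjusted p under 0.05, 5 of them were higher and 0 were lower. At that threshold 2502 of all 14884 genes were higher and 2304 lower. WDR18, named outside the rule, was at 0.30 (SE 0.10, limma adjusted p = 0.0845) and did not pass. CFD is the nearest with a value after PRTN3, separated from it only by ELANE, and its rise of 1.26 was 1.25 smaller than the difference of PRTN3. MED16, a Mediator subunit and the next gene, read 6.89, 6.89 and 6.87 in control and 7.39, 7.32 and 7.26 in RKIP shRNA arrays, a rise of 0.44 (SE 0.07, limma adjusted p = 0.00471). PLPPR3, a phospholipid phosphatase-related protein gene before AZU1, rose by 0.51 (SE 0.10, limma adjusted p = 0.0143) and lost its call in 2 of 6 fits without 1 array. MIR3187, the nearest gene with a value before AZU1, lies within PLPPR3 and had a log2 difference of 0.02. R3HDM4, the next gene with a value after MED16, was at 0.04.

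None of the 12 genes around CTSG passed by limma, where 1 was higher and 1 was lower at an unadjusted p under 0.05. The counts at that threshold over all 14884 genes were 2502 higher and 2304 lower. CBLN3 and STXBP6, the nearest with a value, had log2 differences of 0.02 and 0.09. The granzyme genes GZMH and GZMB and the chymase gene CMA1, which lie beside CTSG, had no row with a gene name. Of the 12 genes around LYZ 2 fell and 10 did not pass, and at an unadjusted p under 0.05 1 was higher and 2 were lower. The 1 higher was NUP107, a nuclear pore gene, at 0.24 (SE 0.07, limma adjusted p = 0.06), named after its value was seen. YEATS4, a chromatin reader gene and the next gene after LYZ, fell by 0.29 (SE 0.07, limma adjusted p = 0.0293), a call lost in 5 of 6 fits without 1 array. RAB3IP, a guanine exchange factor for RAB proteins, fell by 0.43 (SE 0.07, limma adjusted p = 0.00506) between dim values of 4.02 and 3.59. MIR1279 before LYZ was at 0.05 and dim in both groups. Over the 3 loci together 5 of 36 neighbours were called, 3 higher and 2 lower. With a trended and robust prior 6 were higher and 2 lower, and 3 in all were called without control replicate 3 or without RKIP shRNA replicate 1. Whether the loci differ from each other was not tested.

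**Figure D3:**
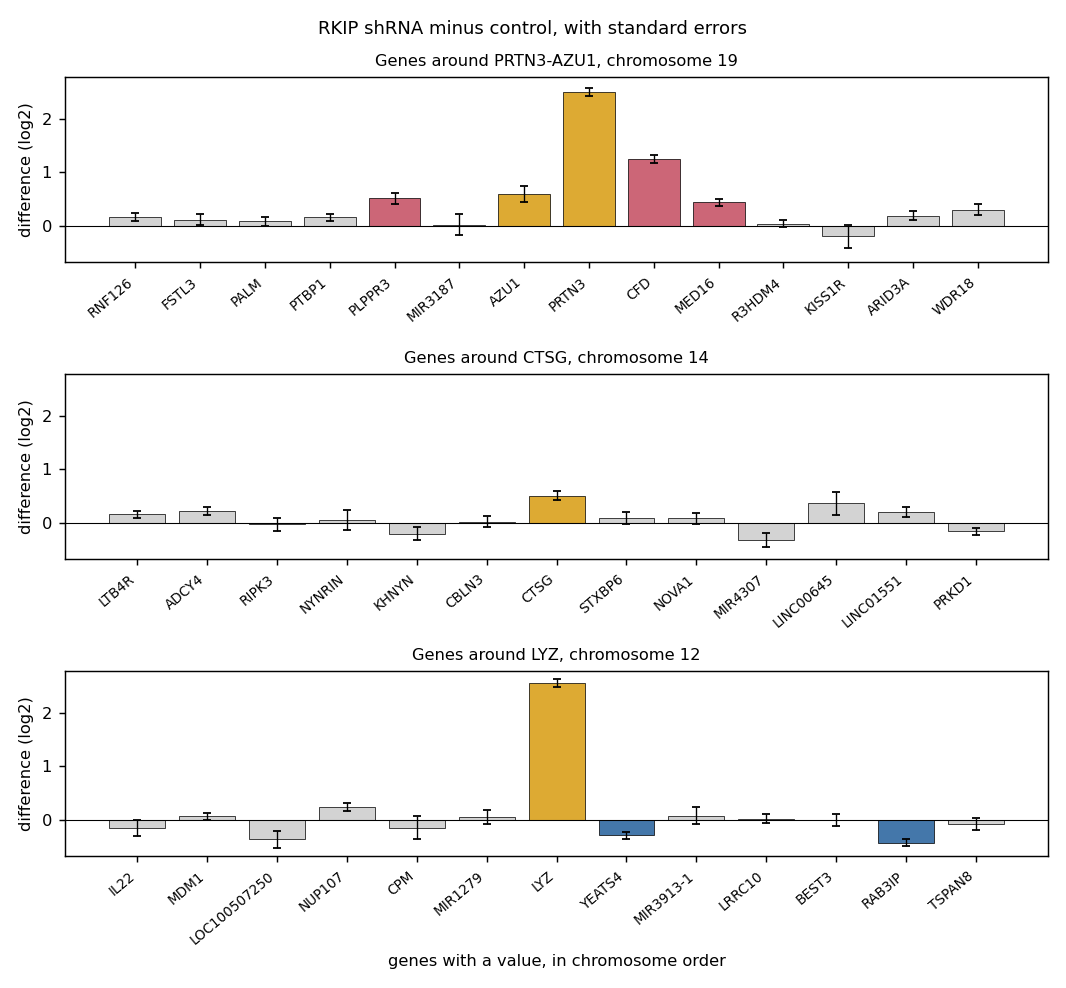
Log2 difference, RKIP shRNA minus control, with standard error (vertical axis), of the genes with a value around PRTN3 and AZU1, CTSG and LYZ, in chromosome order (horizontal axis). Members are in gold, called neighbours in red (higher) or blue (lower), and others in grey. On chromosome 19 the bar of PRTN3 at 2.51 is flanked by AZU1 at 0.60 and CFD at 1.26.

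Markers of blood cell types were read beside these values. Of 14 measured monocyte markers 2 rose and 2 fell, and CD14 was dim in both groups at 2.77 and 2.71, so a defining marker of the labelled lineage was not seen above the median of all rows. TLR4, the lipopolysaccharide receptor, rose by 1.25 and CD86, a costimulatory ligand, fell by 0.90. CD68 rose, as given above, and CD4 fell by 0.35, a call lost in 3 of 6 fits without 1 array. The summed linear level of the 14 genes ran from 686 to 696 in control arrays and from 767 to 837 in RKIP shRNA arrays. This sum was not split by gene. Its called genes moved both ways, CD68 and TLR4 up and CD86 and CD4 down. The other 10 genes did not pass, and the median log2 difference of the list was 0.07. The higher sum is therefore not read as a rise of the monocyte markers as a set.

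Of 5 measured eosinophil markers 2 rose and 3 did not pass. CLC, the Charcot-Leyden crystal protein gene, and EPX, the eosinophil peroxidase gene, rose by 5.43 and 4.94, while PRG3, SIGLEC8 and ALOX15 did not pass and were dim in both groups. The summed level of the 5 measured eosinophil markers ran from 128 to 141 in control and from 4043 to 4429 in RKIP shRNA arrays. Without CLC and EPX the other 3 summed to at least 24.5 and at most 29.0 in either group. Of 7 mast cell and basophil markers 3 rose, namely GATA2, TPSB2 and HDC, the histidine decarboxylase gene, and their summed level went from a range of 221 to 227 to one of 289.1 to 321.5. HDC, at 0.52, lost its call in 4 of 6 fits without 1 array, and TPSB2 in 3 of 6. CPA3 and KIT, which define mast cells, were at -0.145 and -0.32, and TPSAB1 was at -0.33. These 3 did not pass and were dim in both groups, and HPGDS, at 0.50, did not pass either.

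Of 8 neutrophil markers MPO rose and CSF3R fell by 0.49, and 6 were dim in both groups. The call of CSF3R was lost in 3 of 6 fits without 1 array, and the summed level of the 8 genes ran from 6789 to 7242 in control and from 8216 to 8897 in RKIP shRNA arrays. MPO alone ran from 6657 to 7112 and from 8103 to 8790, and the other 7 genes summed to between 121.9 and 133.8 in control and between 99.8 and 112.6 in RKIP shRNA arrays. Of 6 T and NK cell markers NKG7, a granule protein gene of killer cells, rose by 0.93 (SE 0.08), and CD5 rose by 0.39, a call lost in 5 of 6 fits without 1 array. Their summed level ran from 210 to 237 in control and from 318 to 348 in RKIP shRNA arrays, and without NKG7 from 106.1 to 127.3 and from 118.5 to 141.2. None of 2 B cell and 2 erythroid markers passed by limma, or had an unadjusted p under 0.05. PAX5 and BLK stood at -0.13 and 0.04, and KLF1 and EPOR at 0.24 and 0.02. Over all marker lists 13 genes were called with all arrays and 8 without control replicate 2. The part of other cell types in the members' values was not tested.

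The genes whose values ran most like each member were named by Pearson's r over the 6 arrays, as a description in which the arrays and their groups are shared. For LYZ these were EPX (r = 0.9998), the Mediator gene MED24 (0.9997) and ANXA1 (0.9993), whose log2 differences were 4.94, 0.35 and 2.12. For PRTN3 they were the replication gene GINS1 and ICMT, a methyltransferase of prenylated proteins (both 0.9992), and the ubiquitin-activating enzyme gene UBA1 (0.9991), with log2 differences of 0.53, 0.76 and 0.49. For CTSG they were METTL25 (0.998), COLGALT1, a collagen galactosyltransferase gene (0.9974), and MIF, the macrophage migration inhibitory factor gene (0.997). For AZU1 they were DRG2 (0.999), YJU2 (0.9969) and DCAF4L1 (0.9929), and none of these passed by limma. The members themselves correlated over the 6 arrays at 0.997 for PRTN3 with LYZ, 0.972 for PRTN3 with CTSG and 0.856 for PRTN3 with AZU1. Because the members were chosen by the contrast between these groups, high r values were set by that choice, and nothing is read from them.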

How the data were processed

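Total RNA (250 ng per array) was hybridised to Affymetrix Human Gene 2.0 ST arrays, per the labels' protocols and the design text. The authors deposited 1 table of 53617 rows on a log2 scale, read as log2 from its range of 0.72 to 14.0. How the authors corrected background, summarised and normalised is not given in the sources used here, nor is the genome build. Rows were named through the supplied platform annotation, which gave 1 symbol to 16098 rows and left 37519 unnamed, and symbols were updated by gene number through RefSeq (all 16098 matched). The row with the highest 6-array mean was kept for each of 14884 genes.

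RKIP shRNA minus control was fitted with limma 3.58.1 (R 4.3.3, lmFit and eBayes, no filter) over all genes, with Benjamini-Hochberg adjustment over all of them and calls at an adjusted p under 0.05. SE is limma's standard error. The fit was also run on simulated data with independent noise in each array. That run cannot show whether the real arrays are independent of each other. No batch is given, so none was tested, and with 3 arrays a group their number limits precision. No 2 arrays were duplicates (58 to 144 identical values per pair).

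The members, lists and tests were chosen with earlier results of these data known. Named genes were the members, up to 4 called genes per list by p, a few regulators, the nearest and any called neighbours, and 3 likest genes per member. The lists hold no member. Alternatives were quantile normalisation, median centring, the mean of a gene's probes, a trended and robust prior, a replicate block, leaving out dim genes, an adjusted p under 0.01 and leaving out each array. RefSeq gave a promoter for 3 of the 4 members. Figures used matplotlib 3.10.9.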

Additional observations from a re-analysis of the deposited data

How the results depend on the processing

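The log2 differences of PRTN3, AZU1, CTSG and both LYZ rows kept their sign under every alternative run. Part of this was fixed beforehand. Without 1 array no sign could reverse, because the groups did not overlap in any of these rows. The replicate block could not change the differences, nor could averaging rows for PRTN3, AZU1 and CTSG, which have 1 row each. The differences moved by less than 1 SD of the replicates except where the rows of LYZ were swapped or averaged. The kept LYZ row was at 2.55, the mean of both rows at 2.99 and the second row at 3.43. The strand that the second row reads is not given in the sources used here. The values 2.99 and 3.43 may thus not be differences of the LYZ transcript. The counts of called genes moved by over 1.5 times as follows. An adjusted p under 0.01 left 1472 of 3010 genes, 3 of 6 transcription factors, 1 of 2 serine protease relatives, 1 of 2 lysozyme relatives and antibacterial genes, 6 of 13 cell type markers and 3 of 5 neighbours. The trended and robust prior gave 2 specific granule genes (1 higher, 1 lower) in place of 1, 5 storage and release genes (3 higher, 2 lower) in place of 3, and 8 neighbours (6 higher, 2 lower) in place of 5. Leaving out dim genes gave 3 specific granule genes (2 higher, 1 lower) and 5 storage and release genes, of which 3 were lower and 2 higher against 1 and 2 with all genes. Leaving them out also gave 5 higher and 1 lower neighbour in place of 3 and 2. Quantile normalisation gave 2 specific granule genes, both higher. The cause of these moves was not tested beyond the stricter threshold itself. Leaving out 1 array in turn gave 1987 to 2397 called genes, 1 to 3 serine protease relatives, 8 to 12 markers and 3 to 5 neighbours.

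Replicate numbers gave no pairing of arrays: deviations of same-numbered arrays correlated at 0.019, 0.003 and -0.016 over genes, and not every array correlated best with its own number. With the replicate number as a block 2142 genes and 4 of 5 azurophil granule genes were called. No call of detection above background was used here, so dim values may be background.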

Other observations

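Within the control group, replicate 1 held the highest value of PRTN3, AZU1, CTSG and both LYZ rows, and the lowest value of PEBP1, 9.52 against 9.77 and 9.75. Its distance from the control mean was 0.33 for AZU1 and 0.24 for the second LYZ row, but 0.06 for PRTN3 and for the kept LYZ row. For PRTN3 it read 9.50 against 9.48 in control replicate 3. For the kept LYZ row it read 7.61 against 7.59 in control replicate 2. Both leads are smaller than the control SD of 0.09 of each of these rows. Within the RKIP shRNA group, replicate 3 was highest for PRTN3, CTSG and both LYZ rows, while AZU1 was highest in replicate 1. This was seen after the values were known and was not tested.

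The numbers of the table's rows were set against gene strand. Of the 20 rows numbered nearest to the kept LYZ row that have a strand in the RefSeq promoter table, 20 belong to plus-strand genes. Of the 20 nearest to the second LYZ row 18 belong to minus-strand genes. For CTSG, a minus-strand gene, the count was 20 of 20 on the minus strand. LYZ itself is a plus-strand gene, and which strand the second row reads is not given in the sources used here.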
